A study of Mus musculus with 36 samples.

Results

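The nuclear genes of oxidative phosphorylation were followed through 36 libraries of mouse hippocampal RNA. They were taken by symbol, as protein-coding genes named for subunits of complex I (Ndufa, Ndufb, Ndufc, Ndufs and Ndufv), complex II (Sdha to Sdhd), complex III (Uqcr), complex IV (Cox4 to Cox8) and complex V (Atp5), with at least 10 counts summed over all libraries. Of 78298 gene identifiers in the count table, 85 protein-coding genes had such a symbol and 78 reached the minimum. These 78 genes also passed the filter on low counts used for testing. They fell to complex I (7 core and 26 accessory subunits), complex II (4), complex III (7), complex IV (17, with Ndufa4, now counted as a subunit of that complex, and its relative Ndufa4l2) and complex V (17).

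Oxidative phosphorylation makes most of the ATP of a neuron at the inner mitochondrial membrane. Complex I takes electrons from NADH and complex II from succinate, complex III passes them to cytochrome c, complex IV hands them to oxygen, and complex V uses the proton gradient so built to make ATP. Subunits are encoded partly in the nucleus and partly in the mitochondrial genome, so both sets of genes are needed for a working complex. In the hippocampus this supply feeds ion pumping and synaptic transmission.

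The groups were Fmr1 KO (genotype label Fmr1-/-) with cannabidiol (CBD) and with vehicle, Shank3 KO (genotype label Sko-/-) with CBD and with vehicle, and wild type (WT) with CBD and with vehicle, each with 6 libraries, 3 from females and 3 from males. Fmr1 encodes the RNA-binding protein lost in fragile X syndrome, Shank3 encodes a postsynaptic scaffold affected in Phelan-McDermid syndrome, and CBD is a nonintoxicating cannabinoid of the hemp plant. Injections were subcutaneous over 7 days, with CBD at 5 mg/kg in males and 50 mg/kg in females, so that dose and sex cannot be told apart among treated animals. The series title places the work in the study of social behaviour in models of syndromic autism. The sources used here give neither strain, age and litter nor the exact alleles. WT library codes shared the prefix of the Fmr1 KO libraries apart from WT CBD replicate 1. Shank3 KO codes had their own, so that cohort and Shank3 genotype cannot be told apart. The number after the shared prefix was never the same in Fmr1 KO and WT libraries, so it cannot be told apart from Fmr1 genotype. What this number stands for is not said in the labels. The labels do not say that each library came from its own animal, so p-values measure the spread between these libraries.

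Total counts per library ranged between 11655697, in Shank3 KO vehicle replicate 2, and 33228089. Fmr1 averaged 40.03 ± 5.09 CPM (counts scaled to a common library total; SD, n = 6) in Fmr1 KO CBD libraries and 41.1 ± 2.89 in Fmr1 KO vehicle libraries, against 70.0 ± 5.84 in WT CBD and 73.9 ± 4.86 in WT vehicle libraries. Shank3 averaged 175.7 ± 22.7 CPM in Shank3 KO CBD and 167.9 ± 8.75 in Shank3 KO vehicle libraries, against 279.4 ± 63.97 in WT CBD and 264.8 ± 19.4 in WT vehicle libraries. Both target genes were thus lower in their own knockouts without being absent from the counts. Summed markers of hippocampal cells were present in every library, between 278.5 and 890.9 CPM for CA1 pyramidal neurons and between 141.7 and 923 CPM for dentate granule neurons. The 141.7 CPM was Fmr1 KO CBD replicate 3, where the other libraries of that group had 568.7 to 738 CPM. That library also stood 1.49 log2 units below the mean on CA3 markers and 2.27 below it on oligodendrocyte and myelin markers. Striatal markers, of a tissue that should not be in the sample, reached 1548 summed CPM, and 7 libraries stood more than 1 log2 unit above the mean on them (Fmr1 KO vehicle replicate 4, Shank3 KO CBD replicate 2, Shank3 KO vehicle replicates 2, 3 and 4, WT CBD replicates 3 and 6). No marker was called in any comparison. For several comparisons the median without these 7 libraries is given beside the median from all libraries. In bulk tissue fewer cells of a type and less RNA per cell cannot be told apart.

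The promoters of these genes are known for sites of NRF1, of GABPA (NRF2) and of YY1, the factors through which the coactivator PGC-1α (Ppargc1a) drives mitochondrial genes. Windows of 300 bases around the transcription start (250 before and 50 after) were matched for 63 of the 78 genes in RefSeq on GRCm38.p6. The NRF1 core GCGCATGC, searched on both strands, was found in 10 of 63 windows (15.9%) and in 3.94% of the windows of 17492 protein-coding genes. The YY1 core AAGATGGC was found in 14.3% against 3.57%, but before the start in only 1 of 63 windows, against 1.77% of all windows, and the GABPA core CCGGAAGT in 6.35% against 5.69%. A window with matches on both strands, which overlap in the NRF1 core, counted once. The 4 sequences that follow first are the bases before the start of the subunit in each complex that tracked the other members best among those with the NRF1 core there (no complex III gene qualified), and the fifth belongs to Atp5l, the member with the smallest p-value in the CBD comparisons. They are written 5′ to 3′ on the gene's strand and end at the base before the start, with the NRF1 core in capitals.
Ndufa11 (chr17:56717612-56717761, plus strand): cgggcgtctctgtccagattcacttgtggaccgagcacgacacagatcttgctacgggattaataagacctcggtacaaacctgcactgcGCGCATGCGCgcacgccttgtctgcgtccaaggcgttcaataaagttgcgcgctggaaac
Sdhb (chr4:140961121-140961270, plus strand): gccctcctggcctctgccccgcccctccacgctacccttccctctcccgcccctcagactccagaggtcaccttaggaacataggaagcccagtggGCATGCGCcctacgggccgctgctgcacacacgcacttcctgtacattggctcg
Cox6a1 (chr5:115348959-115349208, minus strand): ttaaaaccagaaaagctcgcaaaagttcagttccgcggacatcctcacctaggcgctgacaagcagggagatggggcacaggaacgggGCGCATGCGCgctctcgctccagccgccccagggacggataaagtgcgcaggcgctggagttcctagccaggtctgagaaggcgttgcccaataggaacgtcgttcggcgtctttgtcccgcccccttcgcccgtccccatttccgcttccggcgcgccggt
Atp5g2 (chr15:102671048-102671197, minus strand): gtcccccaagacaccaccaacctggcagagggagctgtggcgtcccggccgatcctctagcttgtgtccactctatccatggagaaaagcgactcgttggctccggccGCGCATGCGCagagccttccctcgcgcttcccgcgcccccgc
Atp5l (chr9:44920743-44920992, minus strand): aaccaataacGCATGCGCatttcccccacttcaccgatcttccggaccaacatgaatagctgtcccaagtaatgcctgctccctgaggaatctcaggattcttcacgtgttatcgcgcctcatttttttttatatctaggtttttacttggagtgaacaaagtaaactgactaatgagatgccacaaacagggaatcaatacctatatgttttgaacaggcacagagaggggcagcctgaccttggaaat
The core begins 60 bases before the start in Ndufa11, 54 in Sdhb, 42 in Atp5g2, 162 in Cox6a1 and 240 in Atp5l. A match is a description of letters and not of a bound site.

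The 78 genes held 0.294% of all counts, between 0.231% and 0.374% of a library. The counts cover whole gene bodies, introns included, so levels between genes are set side by side per kb of body. On that scale the medians were 3.33 CPM per kb for complex I core subunits, 2.55 for complex I accessory subunits, 2.58 for complex II, 6.77 for complex III, 5.68 for complex IV and 3.46 for complex V. Atp5a1, the α subunit of the catalytic head of ATP synthase, was highest at 36.4 CPM per kb, followed by Cox7c at 28.0, Cox5b at 25.7 and Atp5g3, one of 3 genes for the membrane-ring subunit c, at 19.9. Sdha, the flavoprotein of complex II, had 188 CPM over a body of 28027 bp, or 6.71 CPM per kb. Bodies were short, with a median of 7717 bp against 23982 bp over all genes tested, and 51 of 78 were under 10 kb.

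**Figure D1:**
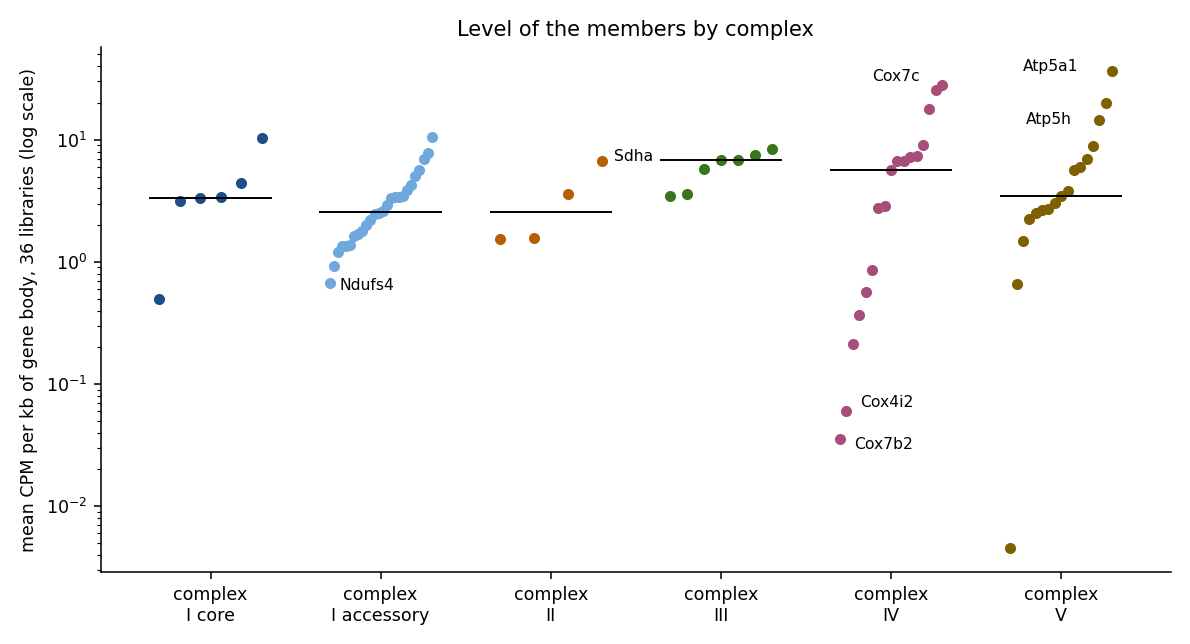
Mean level of 77 of the genes, in CPM per kb of gene body over 36 libraries on a log scale, by complex, with points ordered by level and the horizontal line at the complex median. Atp5a1 is the highest point at 36.4 CPM per kb, and Cox7b2 lies far below the median of its complex.

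Some levels depend on how a gene could be counted. Cox7a1, among the members with the fewest counts, had 407 counts in all libraries together (0.415 CPM), well above the minimum of 10. Under the minimum stood Ndufb8 with 3 counts and Cox8c with 1, while Atp5b (the catalytic β subunit), Cox6a2, Cox8a, Ndufa13 and Uqcr10 were listed at 0. Atp5b, Cox8a, Ndufa13 and Uqcr10 are used by nearly all cells, so these zeros say only how the table lists them. In the older annotation used for the symbols the bodies of Ndufa13 and Cox4i1 overlapped other genes on the same strand over their full length. The overlap was 62.9% for Ndufb9, 37.2% for Ndufb2 and 27.3% for Atp5o. Such genes share reads with a neighbour and their values are uncertain. In all, 34 of the 78 bodies overlapped another gene on either strand, and reads of antisense partners cannot be told apart because the strand setting of the counting is not given. A further identifier with the symbol Atp5o, ENSMUSG00000116933, spans 242585 bp and held 1046 counts. Other genes cover 98.3% of its span on either strand and 18.9% on the same strand. Its values, here and below, are therefore uncertain as a measure of Atp5o.

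Isoforms of more restricted expression were low beside their widely expressed counterparts. Per kb of body, the mean of Cox4i2, the lung isoform of subunit 4, was 0.900% of Cox4i1, with libraries between 0.302% and 2.25%. Cox7a1, the heart and muscle isoform of subunit 7a, was at 2.35% of Cox7a2, with libraries between 0% and 5.14%. Ndufa4l2, which is induced by hypoxia, was at 5.47% of Ndufa4. The testis isoforms Cox6b2 and Cox7b2 were at 11.8% of Cox6b1 and 0.490% of Cox7b, and per kb of exons these shares were 1.06% and 17.1%, so that their order turns on the length used. Cox8b, the muscle form of subunit 8, averaged 0.853 CPM, and its counterpart Cox8a was listed at 0.

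Members differed in how much they varied between libraries. The ratio of the highest to the lowest library was 1.32 for Atp5c1, the γ subunit of ATP synthase, and 1.34 for Ndufs1, the largest core subunit of complex I. Its median was 1.96 over 77 members, and it was 18.2 for Cox8b, which averaged under 1 CPM.

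No member passed the threshold in any comparison between groups. The call needed an adjusted p under 0.05 (Benjamini-Hochberg, over 21172 genes) in edgeR's quasi-likelihood test, with 1 coefficient for each group and a sex term over all 36 libraries. The 78 genes gave 0 calls in 14 comparisons, and also 0 under each alternative, DESeq2's Wald test and limma voom included (401 fits). The standard error of a log2 fold change had a median of 0.121 over the members in Fmr1 KO vehicle against WT vehicle libraries, between 0.0547 for Atp5c1 and 0.552 for Cox8b, and the largest in any comparison of 2 groups was 0.569, for Cox8b in Shank3 KO CBD against WT CBD libraries. Counts at an unadjusted p under 0.05 are therefore given beside the share of all genes at that level, and list medians are descriptions with no test.

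The first comparison asks what loss of Fmr1 does without drug. In Fmr1 KO vehicle against WT vehicle libraries the median log2 fold change of the 78 genes was 0.02, with 48 of them higher, beside a share of called genes of 0.0283% over all genes. At unadjusted p under 0.05 there were 0 members, against 2.24% of all genes. Complex III had the highest median, 0.06, with 6 of 7 subunits higher, and complex I the lowest, 0.00488. Ndufs4, an accessory subunit whose loss causes Leigh syndrome, had the smallest p of any member (log2 fold change 0.15, SE 0.104, adjusted p = 1 in edgeR's quasi-likelihood test). It stood at 65.3, 72.2 and 76.4 CPM (lowest, median and highest) in Fmr1 KO vehicle libraries, against 49.1, 67.7 and 73.7 CPM in WT vehicle libraries, so the groups overlapped. Of 10 fixed subunits (Ndufs1, Ndufv1, Sdha, Sdhb, Uqcrfs1, Uqcrc1, Cox4i1, Cox5a, Cox6c and Atp5a1), 7 were higher, with log2 fold changes between -0.04 for Cox5a and 0.08 for Uqcrfs1. The genes with the smallest p in the other complexes were Sdhd (0.04) and Sdhb (-0.04), Uqcrc2 (0.06) and Uqcrb (-0.11), Ndufa4l2 (0.34) and Cox4i2 (-0.35), and Atp5f1 (0.09) and Atp5s (-0.08). Without Fmr1 KO vehicle replicate 6, the library with the highest level of these genes, the median of the list was -0.06.

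In Shank3 KO vehicle against WT vehicle libraries the median was -0.04 with 21 of 78 genes higher, where 0.0378% of all genes were called. No member had an unadjusted p under 0.05, against 5.63% of all genes. Medians of the 5 complexes lay between -0.06 for complex V and -0.02 for complex IV, and all 4 subunits of complex II were lower, by log2 values of -0.01 to -0.08. The smallest p belonged to Ndufa4l2 (0.51, SE 0.293, adjusted p = 0.854 in edgeR's test). Among the lower genes of complex IV the smallest p was that of Cox7a2l (-0.19), which helps complexes III and IV join. In complex V the smallest p-values were those of Atp5o (0.14) and Atp5h (-0.18), in complex III Uqcrfs1 (0.02) and Uqcrc2 (-0.13), and in complex I Ndufs4 (0.11) and Ndufa5 (-0.19). Of the 10 fixed subunits 3 were higher, between -0.15 for Ndufv1, which holds the NADH site of complex I, and 0.13 for Cox4i1. Striatal markers were higher in Shank3 KO vehicle libraries, with 9 of 9 tested markers higher, a median log2 fold change of 1.79 and summed levels of 509.3 to 1540 CPM against 263.9 to 671.5 CPM in WT vehicle libraries. Without the 7 libraries high in striatal markers the median of the 78 genes was 0.02, and without Shank3 KO vehicle replicate 2 alone it was 0.01.

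**Figure D2:**
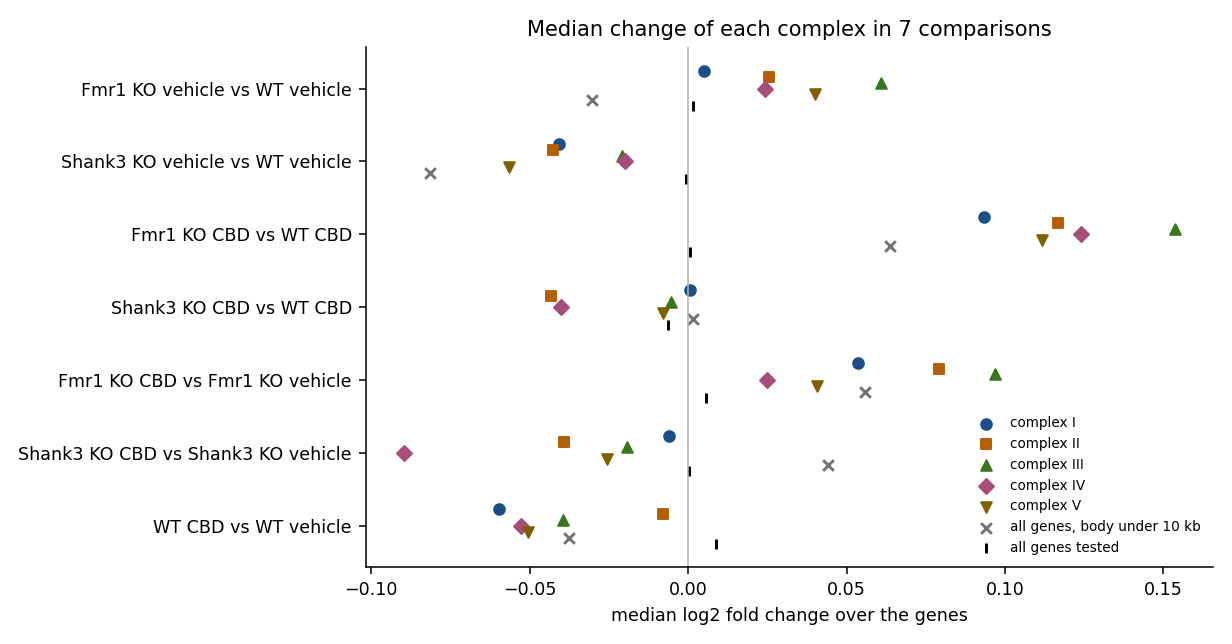
Median log2 fold change of the members of each complex in 7 comparisons, with all genes tested (tick) and all genes with a body under 10 kb (cross); each comparison is named with the numerator first. The medians of all 5 complexes lie above 0.09 in Fmr1 KO CBD against WT CBD libraries and within 0.1 of 0 in the 6 other comparisons.

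The comparison of Fmr1 KO CBD with WT CBD libraries had the largest shift of the 78 genes among the comparisons of 2 groups. Its median log2 fold change was 0.11, and 71 of 78 genes were higher, although 0 members were called, where 0.0331% of all genes were. At unadjusted p under 0.05 stood 3 higher and 1 lower member, against 7.4% of all genes, so in this fit the members' share was not above the background. Without WT CBD replicate 1, the WT CBD library with the highest level of these genes, there were 19 higher members of 78 at that level. The share of all genes was then 13.9%. With limma voom there were 15, against 9.78% of all genes, and 0 members were called in either setting. Leaving out 1 library gave 0 to 21 members at that level, with 21 without WT CBD replicate 1, and the other alternatives gave 1 to 17. A members' share above the background in these 2 settings therefore did not hold across settings. All 17 complex V genes (median 0.11) and all 7 complex III genes (0.15) were higher, as were 14 of 17 in complex IV (0.12), 3 of 4 in complex II (0.12) and 30 of 33 in complex I (0.09).

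Ndufb9, Ndufb3 and Ndufb4, accessory subunits of the membrane arm of complex I, were the 3 higher members at that level. Ndufb4 had 22.3, 26.4 and 30.2 CPM (lowest, median and highest) in Fmr1 KO CBD libraries, against 21.8, 23.1 and 26.9 CPM in WT CBD libraries (log2 fold change 0.18, SE 0.0823, adjusted p = 0.66 in edgeR's test). Ndufb9 had 17.7, 20.5 and 24.4 CPM in Fmr1 KO CBD libraries, against 15.1, 17.0 and 23.2 CPM in WT CBD libraries, with a log2 fold change of 0.24. For both genes the middle of the first group lay above that of the second, and the groups overlapped. Cox7b2 was the lower one, at 1.84, 2.74 and 4.45 CPM in Fmr1 KO CBD libraries, against 1.88, 4.76 and 8.52 CPM in WT CBD libraries (log2 fold change -0.73, SE 0.304, adjusted p = 0.654 in edgeR's test). Sdhb, the iron-sulfur subunit of complex II, Uqcr11 of complex III, Cox6a1 of complex IV and Atp5k of complex V had the smallest p among higher genes of their complexes, with log2 fold changes of 0.15, 0.28, 0.26 and 0.35 and unadjusted p-values above 0.05. Of the 10 fixed subunits 9 were higher, between -0.02 for Ndufs1 and 0.23 for Cox6c. Sdha had 173, 209 and 213 CPM in Fmr1 KO CBD libraries, against 172, 185 and 200 CPM in WT CBD libraries (log2 fold change 0.14, SE 0.08, adjusted p = 0.731 in edgeR's test). All Fmr1 KO CBD libraries but replicate 2, the lowest, lay above every WT CBD library in Sdha. Atp5a1 had 296, 337 and 460 CPM in Fmr1 KO CBD libraries, against 271, 307 and 460 CPM in WT CBD libraries. In Atp5a1 the groups overlapped over most of their range.

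**Figure D3:**
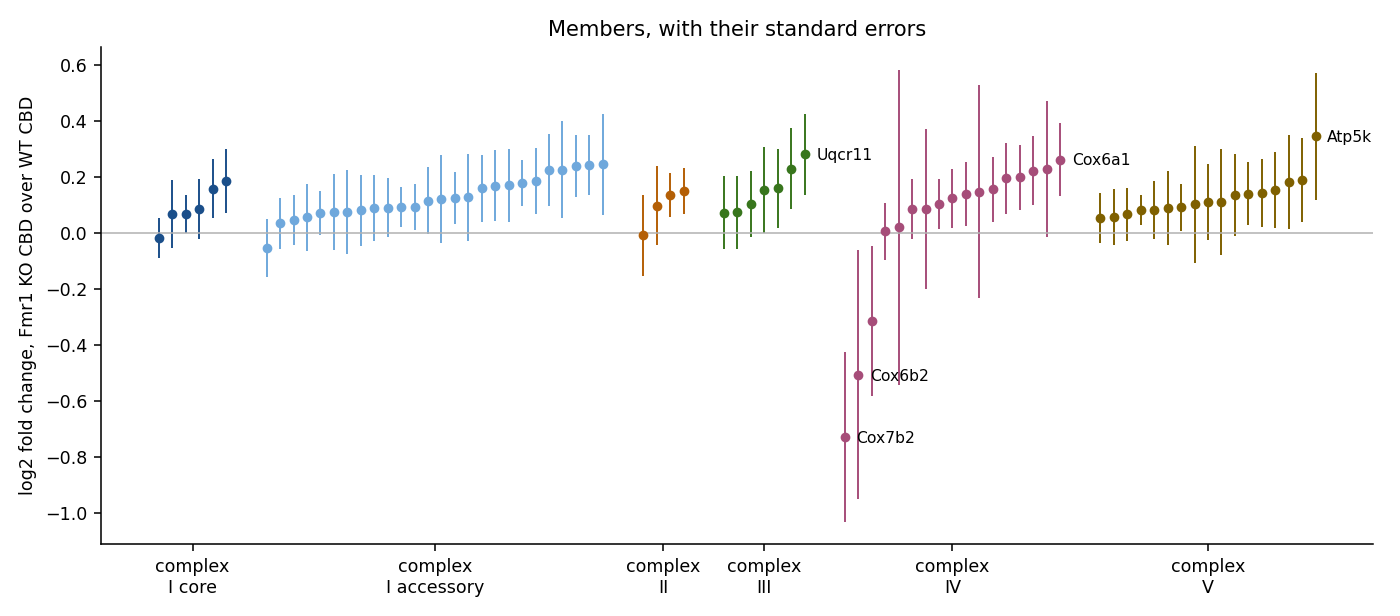
Log2 fold change of 77 of the genes in Fmr1 KO CBD over WT CBD libraries, by complex and ordered by value, with bars of 1 standard error. Most points lie between 0 and 0.25, and Cox7b2 (-0.73) lies lowest of those shown.

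Other gene lists stood in the same direction in Fmr1 KO CBD against WT CBD libraries. Cytosolic ribosomal protein genes were higher in 73 of 73 cases with a median of 0.22, and the 13 genes of the mitochondrial genome had a median of 0.21. All tested genes with a body under 10 kb had a median of 0.06 and those over 100 kb one of -0.05. Oligodendrocyte and myelin markers were lower in 10 of 10 cases (median -0.73; 597.3 to 2892 summed CPM in Fmr1 KO CBD against 2383 to 4632 in WT CBD libraries), and none of the 10 was at 0 in all libraries. The 597.3 CPM was Fmr1 KO CBD replicate 3, and the other libraries of that group had 1712 to 2892 CPM. Striatal markers were lower in 9 of 9 cases, with a median of -1.87. Their part in the shift of the 78 genes was not tested. The median of the 78 genes was 0.08 without the libraries high in striatal markers, 0.17 without WT CBD replicate 1 (smallest adjusted p of a member = 0.274 in edgeR's test) and 0.07 without Fmr1 KO CBD replicate 6.

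In Shank3 KO CBD against WT CBD libraries the median was -0.01 with 32 of 78 genes higher, where 0.0425% of all genes were called. There were 0 members at unadjusted p under 0.05, against 1.65% of all genes. Cox7b2 had the smallest p there too (log2 fold change -0.59, adjusted p = 0.9999 in edgeR's test), at 2.11, 3.04 and 4.67 CPM in Shank3 KO CBD libraries. Both of these comparisons use the WT CBD libraries, which had the highest median and the highest single value of Cox7b2 among the 6 groups. The fixed subunits lay between -0.04 (Ndufv1) and 0.06 (Cox6c), with 2 of 10 higher. Smallest p-values elsewhere belonged to Ndufb2 (0.11) and Ndufa9 (-0.11) in complex I, Sdhd (-0.13) in complex II, Uqcrq (0.06) and Uqcrc2 (-0.03) in complex III, Cox7a1 (0.41) in complex IV and Atp5g2 (0.09) and Atp5f1 (-0.08) in complex V. Without WT CBD replicate 1 the median of the list was 0.05, and without the libraries high in striatal markers it was -0.06.

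The effect of CBD was compared within each genotype. In WT CBD against WT vehicle libraries 0% of all genes were called; the median of the 78 genes was -0.05, 11 were higher, and 1 was lower at unadjusted p under 0.05, against 2.68% of all genes. All 7 complex III genes were lower, as were the 10 fixed subunits, between -0.11 for Cox6c and -0.02 for Uqcrfs1. Apart from Atp5l, the lower genes with the smallest p in each complex were Ndufb9 (-0.17), Sdhb (-0.08), Uqcrb (-0.09) and Cox7a1 (-0.45), and the higher ones Ndufs4 (0.09), Sdhc (0.02), Cox7b2 (0.47) and Atp5g1 (0.01). In Fmr1 KO CBD against Fmr1 KO vehicle libraries, where 0% of all genes were called, the median was 0.05 with 55 genes higher, and 0 members had an unadjusted p under 0.05, against 2.64% of all genes. In Fmr1 KO the higher genes with the smallest p were Ndufa8 (0.13), Sdhb (0.11), Uqcr11 (0.15), Cox5b (0.20) and Atp5d (0.17), and the lower ones Ndufs4 (-0.12), Sdhc (-0.02), Uqcrc2 (-0.00262), Cox8b (-0.53) and Atp5l (-0.16). Of the fixed subunits 8 of 10 were higher, between -0.05 for Ndufs1 and 0.11 for Cox5a. Leaving out Fmr1 KO CBD replicate 6 gave 0.01 and leaving out Fmr1 KO vehicle replicate 6 gave 0.12. In WT libraries the median was -0.12 without WT CBD replicate 1.

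In Shank3 KO CBD against Shank3 KO vehicle libraries 0% of all genes were called, the median was -0.03 with 28 of 78 genes higher, and 4 members were lower at unadjusted p under 0.05, against 4.41% of all genes. Complex IV had the lowest median of any complex, -0.09, with 2 of 17 genes higher. The 4 members were Cox7c and Cox4i1 of complex IV, and Atp5o and Atp5l of complex V. Cox7c, a small nuclear subunit of the oxidase, had 48.1, 54.2 and 57.8 CPM (lowest, median and highest) in Shank3 KO CBD libraries, against 54.7, 62.0 and 78.4 CPM in Shank3 KO vehicle libraries (log2 fold change -0.23, SE 0.106, adjusted p = 0.964 in edgeR's test). Atp5o, the stalk subunit OSCP, had 7.08, 8.87 and 10.5 CPM in Shank3 KO CBD libraries, against 9.48, 10.4 and 11.2 CPM in Shank3 KO vehicle libraries, with a log2 fold change of -0.23. In both genes the groups overlapped. The fixed subunits lay between -0.25 (Cox4i1) and 0.07 (Uqcrc1), with 4 of 10 higher. Cox4i1 had 28.6, 37.6 and 43.9 CPM in Shank3 KO CBD libraries, against 37.7, 44.1 and 52.2 CPM in Shank3 KO vehicle libraries. Higher genes with the smallest p were Ndufs7 (0.15), Sdha (0.02), Uqcrq (0.11), Cox7a2l (0.14) and ENSMUSG00000116933 (0.26), and lower ones outside the 4 were Ndufb6 (-0.20), Sdhb (-0.06) and Uqcrb (-0.08). Striatal markers were lower in 9 of 9 cases (median -1.31). The list median was -0.12 without the libraries high in striatal markers and 0.01 without Shank3 KO vehicle replicate 6.

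The CBD effect itself was compared between genotypes. Fmr1 KO minus WT gave a median of 0.10 with 65 of 78 genes higher, 0% of all genes called and 0 members at unadjusted p under 0.05, against 3% of all genes. Sdhb (0.19), Ndufb9 (0.23) and Cox5b (0.23) had the smallest unadjusted p-values of complexes II, I and IV, and Cox6c was the highest of the fixed subunits at 0.22. The median was 0.03 with the level of long genes as a covariate and 0.18 without Fmr1 KO vehicle replicate 6. Shank3 KO minus WT gave 0.03 with 44 genes higher and 0% of all genes called. Cox7b2 was the 1 member at unadjusted p under 0.05 (difference of log2 fold changes -0.95, adjusted p = 0.912 in edgeR's test), against 4.74% of all genes. Without the libraries high in striatal markers the median of the 78 genes was -0.06.

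Atp5l, subunit g of the membrane part of ATP synthase, had the smallest p-value of any member. It had 18.2, 20.7 and 26.5 CPM in Fmr1 KO CBD, 18.1, 20.0 and 22.1 in Shank3 KO CBD and 18.3, 20.7 and 22.7 CPM in WT CBD libraries. In vehicle libraries it had 19.6, 23.1 and 30.3 CPM in Fmr1 KO, 21.8, 23.1 and 24.2 in Shank3 KO and 23.0, 23.8 and 25.4 CPM in WT. The WT groups did not overlap, which held for 0.052% of all genes in that comparison and for no other member in any of the 7 comparisons of 2 groups. The share of all genes whose groups did not overlap was 0.128% and 0.279% in Fmr1 KO and Shank3 KO against WT under vehicle, 0.184% and 0.0897% in the same genotypes under CBD, and 0.052% and 0.241% for CBD against vehicle in Fmr1 KO and Shank3 KO. The log2 fold change was -0.16 in Fmr1 KO (SE 0.0884, adjusted p = 0.9997), -0.18 in Shank3 KO (SE 0.0886, adjusted p = 0.964) and -0.23 in WT (SE 0.0886, adjusted p = 1), each in edgeR's test. Averaged over the 3 genotypes it was -0.19 (SE 0.0511, adjusted p = 0.9997 in edgeR's test), where 0.0189% of all genes were called and 3.16% had an unadjusted p under 0.05. Leaving out each library in turn gave -0.22 to -0.16, and the smallest adjusted p of any setting was 0.180.

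Direction was followed over the 3 genotypes, whose CBD comparisons share no libraries. Of the 78 genes, 14 were lower with CBD in all 3 (17.9%, against 9.84% of all genes), and 1, Atp5k, was higher in all 3 (1.28%, against 11.9%). Among the 14 were Ndufa10, Ndufb6, Ndufs1 and Ndufv2 of complex I, Cox6b2, Cox7a2, Cox7b, Cox7c and Ndufa4 of complex IV, and Atp5f1, Atp5l, Atp5mpl and Atp5o of complex V. For several of them the value in Fmr1 KO was close to 0, such as -0.000157 for Ndufa4 and -0.000207 for Cox7c on the log2 scale. Atp5k was at 0.0133 in Shank3 KO and 0.00513 in WT. Of 73 cytosolic ribosomal protein genes, 1.37% were higher and 2.74% lower in all 3 genotypes. Of genes with a body under 10 kb, 14.3% were higher and 8.78% lower in all 3. The members moved together across libraries, so these are not counts of independent signs. Averaged over the genotypes the median of all 78 genes was -0.01, with 32 higher and Atp5l the 1 member at unadjusted p under 0.05. This median was -0.04 without the libraries high in striatal markers.

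By sex, and so by dose, the medians lay on opposite sides of 0. In females the CBD effect had a median of -0.08 with 15 of 78 genes higher, 0.0142% of all genes called, and 2 lower members (Atp5l and Ndufb6) at unadjusted p under 0.05, against 3.07% of all genes. In males it was 0.05 with 51 genes higher, 0% of all genes called, and 2 higher (Atp5d and Ndufa8) and 1 lower member (Atp5l) at that level, against 6.97% of all genes. The difference, females minus males, had a median of -0.13 with 20 of 78 genes higher and 0% of all genes called. At unadjusted p under 0.05 were 9 members, all lower in the difference, against 7.4% of all genes. Atp5d, the δ subunit of the ATP synthase stalk, had the smallest p of these (difference -0.46, SE 0.159, adjusted p = 0.659 in edgeR's test).

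Atp5d in females had 43.2, 59.1 and 75.5 CPM (lowest, median and highest of 9) with CBD, against 54.2, 65.95 and 80.6 CPM with vehicle. In males it had 61.5, 66.5 and 99.4 CPM with CBD, against 40.2, 59.6 and 76.4 CPM with vehicle. All 4 sets overlapped. Ndufa8, an accessory subunit of complex I, in females had 24.2, 25.99 and 31.5 CPM with CBD, against 22.8, 30.1 and 33.7 CPM with vehicle. In males it had 25.7, 29.6 and 37.5 CPM with CBD, against 21.1, 26.8 and 34.6 CPM with vehicle. In the same difference between the sexes glycolysis genes had a median of -0.25, genes of the mitochondrial genome one of 0.45 and astrocyte markers one of -0.17 with 0 of 7 higher. Their part was not tested. The median of the 78 genes was -0.02 with the level of long genes as a covariate and -0.07 without Fmr1 KO vehicle replicate 6; in males alone it was -0.02 without the libraries high in striatal markers and 0.00497 without Shank3 KO vehicle replicate 2.

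Under vehicle, females against males gave a median of 0.06 with 61 of 78 genes higher, where 0.0331% of all genes were called. Uqcrq of complex III was higher (0.24) and Cox7b2 lower (-0.56) at unadjusted p under 0.05 (adjusted p = 1 for both in edgeR's test), against 2.74% of all genes. Without Fmr1 KO vehicle replicate 6, a female, the median was 0.01.

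The members were also summed up for each library, as the median over the 78 genes of the log2 CPM minus the mean of that gene. Group means of this score were 0.071 ± 0.125 in Fmr1 KO CBD, -0.041 ± 0.075 in Shank3 KO CBD and -0.037 ± 0.145 in WT CBD libraries, and 0.040 ± 0.164 in Fmr1 KO vehicle, -0.040 ± 0.180 in Shank3 KO vehicle and 0.019 ± 0.133 in WT vehicle libraries (SD, n = 6 each). The groups accounted for 10.4% of its variance, and all groups overlapped. The highest library was Fmr1 KO vehicle replicate 6 at 0.362 and the lowest Shank3 KO vehicle replicate 2, the shallowest library, at -0.374.

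**Figure D4:**
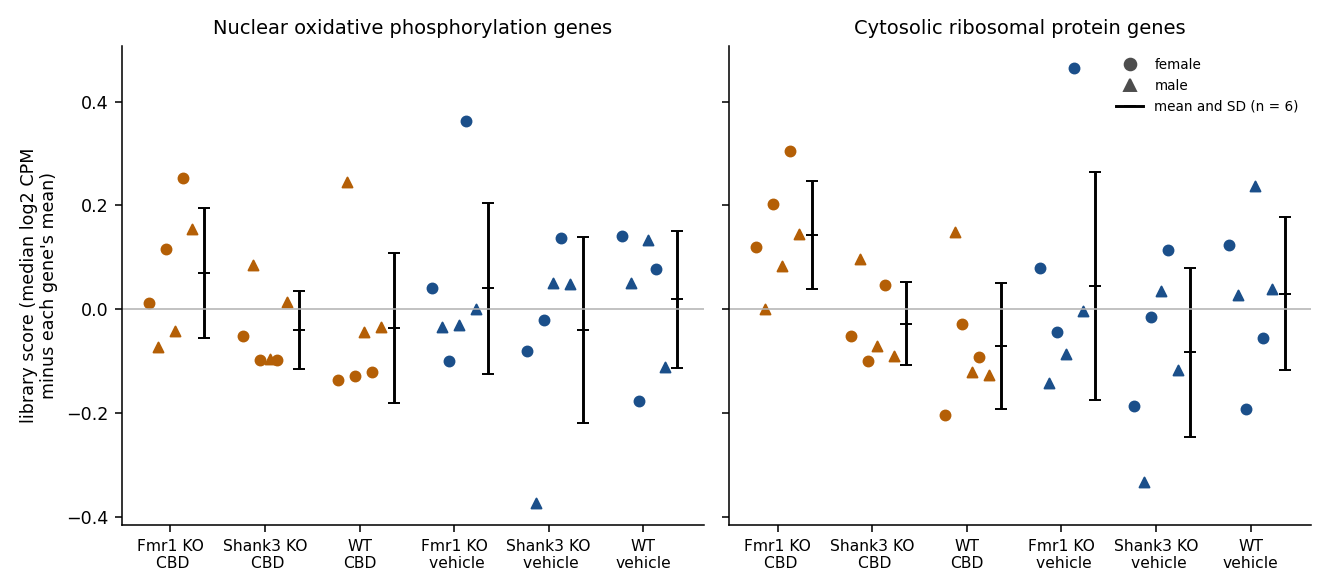
Score of each library for the 78 oxidative phosphorylation genes (left) and for cytosolic ribosomal protein genes (right), in log2 units, by group, with females as circles, males as triangles, and bars for the mean and SD of 6 libraries. Libraries high on the left are mostly high on the right, and the ranges of the groups overlap in both panels.

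The complexes moved together across libraries. The score of each complex had a Pearson r of 0.781 (complex II) to 0.982 (complex I) with the score of all 78 genes, which contains it. The score followed that of cytosolic ribosomal protein genes over 36 libraries (r = 0.851, Spearman's rho = 0.730; r = 0.765 without the farthest pair of libraries; r = 0.850 within groups). It was also high with genes of body under 10 kb (r = 0.845, rho = 0.824), with tricarboxylic acid cycle genes (r = 0.769, rho = 0.854), with glycolysis genes (r = 0.780, rho = 0.829) and with astrocyte markers (r = 0.658, rho = 0.678). With genes of body over 100 kb it ran the other way (r = -0.697, rho = -0.806). With the 13 genes of the mitochondrial genome, whose products join the same complexes, r was 0.00789 and rho 0.111. With the transcriptional regulators of mitochondrial genes, Ppargc1a and Nrf1 among them, r was -0.223 and 0.151 without the farthest pair. All of these share libraries and scaling, and they are descriptions with no test.

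Assembly factors, which build the complexes without staying in them, were followed as an outside list of the same pathway. Of 46 tested, 0 were called in any of these comparisons, and their median was 0.06 in Fmr1 KO CBD against WT CBD libraries with 36 higher. The 14 transcriptional regulators had a median of -0.03 there, with 5 higher. Across libraries the score of assembly factors had an r of 0.748 (rho = 0.778) with that of the 78 genes.

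Single members followed the rest to different degrees. The Pearson r of a gene's log2 CPM with the mean of the other members over 36 libraries had a median of 0.64, and 50 of 78 genes were above 0.5. Ndufa4 (0.93), Ndufc2, a complex I membrane subunit (0.91), and Cox6b1 (0.88) were most like the others. Cox7b2 (-0.62), Ndufs4 (-0.33) and ENSMUSG00000116933 (-0.15) were least like them, and these 3 are the only members with a body over 50 kb. The median r was 0.70 for 25 genes under 5 kb, 0.66 for 26 genes of 5 to 10 kb and 0.53 for 24 genes of 10 to 50 kb. Ndufs4 tracked the level of genes over 100 kb instead (r = 0.875, rho = 0.709; 0.790 without the farthest pair). Cox7b2 tracked long genes (r = 0.618, rho = 0.658) and striatal markers (r = 0.539, rho = 0.549; 0.387 without the farthest pair).

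**Figure D5:**
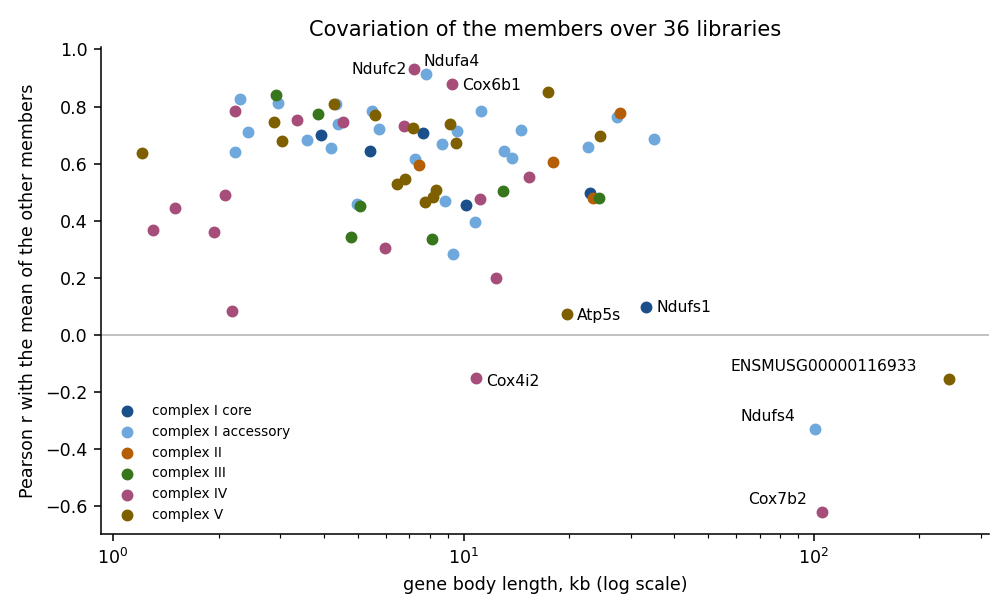
Pearson r of 77 of the genes with the mean of the other members over 36 libraries (vertical) against the length of the gene body in kb on a log scale (horizontal), coloured by complex. The 3 genes with a body over 50 kb lie below 0, at -0.62, -0.33 and -0.15, and Cox4i2, at 10.9 kb, is the other gene below 0.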

How the data were processed

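Mouse hippocampal tissue was profiled by bulk RNA-seq (36 libraries, 6 groups of 6). The authors deposited raw counts per gene, made per the submitters' processing notes with STAR 2.7.11b and featureCounts 2.0.8 on GRCm39; FastQC, DESeq2 and edgeR are also named there. The sources used here give neither annotation release nor strand setting. The deposited gene length lay within 5% of the whole gene span for 98.1% of 20322 coding genes with introns, so the counts were read as covering introns. Symbols and gene types came from GENCODE vM21 and promoters from RefSeq, both on GRCm38, and 51547 identifiers, with 99.0% of counts, received a symbol.

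Counts were tested in R 4.3.3 with edgeR 4.0.16 (filterByExpr, TMM, quasi-likelihood F test, groups and sex in 1 fit; a coefficient for each group and sex in contrasts of sexes) with Benjamini-Hochberg adjustment over 21172 genes. The tests were tried on simulated data. CPM were computed from TMM library sizes. Alternatives, tried on every comparison they apply to, were DESeq2 1.42.0, limma 3.58.1 (voom with quality weights), DESeq2 size factors, both ends of low-count filtering, no sex term, the compared groups alone, the replicate block and leaving out each library; a long-gene covariate, leaving out libraries high in striatal markers, and the contrast of the CBD effect between sexes were chosen after seeing the data. The text names 10 fixed subunits, the member with the smallest p in each complex and direction (for contrasts of effects and sexes, only some of these), tissue-restricted isoforms, the 3 members most and least like the others, and those next to the count minimum; beyond it, members at unadjusted p under 0.05 were named. Members and lists were chosen with earlier results of these data known. Values of 1 member are not reported here, though lists and medians include it.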

Additional observations from a re-analysis of the deposited data

Results flagged for a closer look

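In groups of 6, a library was looked at again when its gap to the nearest other library exceeded Dixon's critical share of the range of the group. Of 180 sets of 6 values examined (scores and named members), 33 held such a library. Chance gives about 1 in 20 for a single set. The sets share libraries and the scores contain the members, so they are not independent and the 33 cannot be held against that share. Most of the 33 came from 3 libraries. Fmr1 KO vehicle replicate 6 stood high for the score of all 78 genes (0.362) and of complex I (0.371), complex IV (0.332) and complex V (0.364). The same library was high in CPM for Ndufv1 (72.1), Sdha (221), Sdhb (32), Uqcrfs1 (46), Cox6a1 (81.1), Cox6b1 (92.5), Cox7a2 (55.2) and Ndufa4 (72.5). WT CBD replicate 1, the WT library whose code starts differently, stood high for the score of all genes (0.245), complex II (0.474), complex III (0.262), complex IV (0.296) and complex V (0.238), and in CPM for Uqcrfs1 (52), Uqcrc1 (104), Atp5a1 (460), Cox6b1 (89.8) and Ndufc2 (31.4). Shank3 KO vehicle replicate 2 stood low for the scores of complex I (-0.388) and complex IV (-0.416) and in CPM for Uqcrc1 (57.3) and Ndufc2 (17), and high for Cox5a (37.8).

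Shank3 KO CBD replicate 6 stood high for the score of complex II (0.142) and in CPM for Uqcrfs1 (45.9) and Uqcrc1 (101), and low for Ndufs4 (54.4). Sdha was low in Fmr1 KO CBD replicate 2 (173 CPM), and Cox7a1 was high in WT CBD replicate 2 (0.438 CPM).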

How the results depend on the processing

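No member was called in any of 401 fits. Every alternative value of the median over the 78 genes lay within the SD of the score between replicates (0.141) of the value reported for its comparison. This SD exceeds, in size, the main-fit median of the 78 genes in every comparison. Lying within it therefore does not show that a median was stable. With the long-gene covariate the median went from -0.13 to -0.02 for the CBD effect of females minus males. For the CBD effect of Fmr1 KO minus WT it went from 0.10 to 0.03. Leaving out 1 library gave medians of -0.06 to 0.05 for Fmr1 KO vehicle against WT vehicle, 0.07 to 0.17 for Fmr1 KO CBD against WT CBD, -0.12 to -0.03 for WT CBD against WT vehicle and -0.17 to -0.07 for the CBD effect of females minus males. Medians changed sign with voom (-0.02 for Fmr1 KO vehicle against WT vehicle; 0.00940 for Shank3 KO CBD against WT CBD) and with the long-gene covariate (0.03 for Shank3 KO vehicle against WT vehicle; -0.03 for the difference of the CBD effect, Shank3 KO minus WT; -0.01 for CBD in males, where voom gave -0.00220). Without 1 library the sign changed in 2, 1, 2, 1, 1 and 4 of the settings for Fmr1 KO vehicle against WT vehicle, Shank3 KO vehicle against WT vehicle, Shank3 KO CBD against WT CBD, the CBD effect in Shank3 KO, its difference from WT and the mean CBD effect. Counts at unadjusted p under 0.05 moved more. Leaving out 1 library gave up to 19 members in females minus males (without Fmr1 KO vehicle replicate 2), 11 in females (the same library), 9 in males (without Shank3 KO CBD replicate 2) and 7 for CBD in WT (without WT CBD replicate 1). Of 7238 alternative values of named members, 64 moved by more than 1 SE. Of these, 27 came with the long-gene covariate and 20 without the libraries high in striatal markers. A further 10 came from leaving out 1 library, 5 from voom and 2 from the replicate block. The cause was not tested.

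Replicate numbers did not pair the libraries: deviations of same-numbered libraries had r between -0.309 and 0.368. With the replicate block the median was 0.11 for Fmr1 KO CBD against WT CBD, 0.02 for Fmr1 KO vehicle, -0.04 for Shank3 KO vehicle, -0.02 for Shank3 KO CBD against WT, -0.05 for CBD in WT, 0.05 in Fmr1 KO and -0.02 in Shank3 KO, the comparison with the highest r, with 0 members called.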
